A study of Mus musculus with 4 samples.

Results

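The calcineurin-NFAT axis is described here through 9 genes: Rcan1, Cabin1, Ppp3ca, Ppp3cb, Ppp3r1, Nfatc1, Nfatc2, Nfatc3 and Dyrk1a. They were picked by gene name from 55487 genes, and each matched 1 gene ID. Rcan1 was picked because of its values in these same libraries, and the other 8 because they act in the same pathway. Their differences with UVB are therefore a description and no test is drawn from them.

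RNA was sequenced from 4 libraries labelled as regulatory T cells of mouse skin. The UVB group holds 2 libraries from mice exposed 3 times to narrow-band ultraviolet B, and the non-UVB group holds 2 libraries without that exposure. Per the series' design text, psoriasis-like dermatitis was induced on shaved back skin with a daily 60 mg of cream with 5% imiquimod, which activates the RNA sensor TLR7, and the irradiation was given on alternate days. The sources used here do not state strain, sex, age, the sorting scheme or whether animals were pooled. The libraries carry the numbers 1 and 2 in each group. No source ties the numbers to different animals, and the p-values below therefore cover the spread between libraries alone, which may be technical.

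Calcineurin is a phosphatase switched on by calcium and calmodulin. It is built from a catalytic A subunit, encoded by Ppp3ca, Ppp3cb or Ppp3cc, and a calcium-binding B subunit, encoded in most tissues by Ppp3r1. It strips phosphates from NFAT transcription factors, which then enter the nucleus. Kinases such as Dyrk1a put the phosphates back and send NFAT out again. In T cells the antigen receptor starts this chain, and NFAT drives cytokine genes together with AP-1, or works with Foxp3 in regulatory T cells. Rcan1 and Cabin1 bind calcineurin and restrain it. A short form of Rcan1 is made from an internal promoter that NFAT itself activates, so Rcan1 RNA is widely used as a readout of calcineurin activity.

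The labelled cell type was checked first, because it touches each value below. Foxp3, which defines regulatory T cells, stood at 3.49 and 19.3 TPM with UVB (replicates 1 and 2, in that order here and below) against 0 and 19.4 TPM without. TPM is a transcript abundance scaled to gene length and to the same total in each library. The 7 genes of the regulatory T cell list had a sum of 2610 and 5942 TPM against 2696 and 8136 TPM. The 7 gamma-delta T cell markers found summed to 8450 and 302 TPM with UVB against 9200 and 176 TPM without. The 2 libraries numbered 1 thus carried far more gamma-delta transcripts than those numbered 2 in each group. Markers of macrophages and dendritic cells summed to 22366 and 13858 TPM with UVB against 13352 and 6053 TPM without, and 14 of 15 tested genes of this list had a higher mean with UVB, as did 61.0% of all genes tested. The keratinocyte list had a sum of 359 and 3494 TPM against 261 and 3108 TPM, and the red blood cell list one of 1529 and 2546 TPM against 117431 and 4414 TPM. The alpha-beta CD4 T cell list had a sum of 6028 and 4150 TPM against 7079 and 6649 TPM. Its genes did not move together. Cd3g, the largest part in the libraries numbered 1, had 2701 and 848 TPM against 2560 and 968 TPM. Cd4 had 33.9 and 71.6 TPM against 6.02 and 138 TPM, and Trac 554 and 878 TPM against 274 and 2350 TPM. Of the 6 mast cell markers, Mcpt4, Cma1, Tpsb2 and Ms4a2 were at 0 in all 4 libraries. Kit had 0.00668 and 34.4 TPM with UVB against 3.64 and 0.0527 TPM without, and Cpa3 was above 0 only in UVB replicate 2, at 0.033 TPM. The part of these cells in the results was not tested, and in bulk RNA fewer cells of a type and less RNA per cell cannot be told apart. The values rested on 4.20 and 2.38 gigabases of reads of 100 bp with UVB and on 3.41 and 2.47 gigabases without.

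Rcan1 has 2 RefSeq promoter windows, shown here because Rcan1 had the widest difference of the 9 genes and because the internal window is the one known to respond to NFAT. Both are 250 bases that end right before the annotated start, on the minus strand of chromosome 16 in GRCm38.p6, written 5′ to 3′. Capitals mark the NFAT core GGAAA on either strand (TTTCC on the printed strand is its reverse).
Rcan1 distal window, chr16:92466170-92466419: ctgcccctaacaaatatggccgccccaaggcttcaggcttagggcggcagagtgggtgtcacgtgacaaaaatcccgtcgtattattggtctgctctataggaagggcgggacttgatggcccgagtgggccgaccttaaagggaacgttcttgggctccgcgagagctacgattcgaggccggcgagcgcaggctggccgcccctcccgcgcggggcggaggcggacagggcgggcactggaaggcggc
Rcan1 internal window, chr16:92400079-92400328: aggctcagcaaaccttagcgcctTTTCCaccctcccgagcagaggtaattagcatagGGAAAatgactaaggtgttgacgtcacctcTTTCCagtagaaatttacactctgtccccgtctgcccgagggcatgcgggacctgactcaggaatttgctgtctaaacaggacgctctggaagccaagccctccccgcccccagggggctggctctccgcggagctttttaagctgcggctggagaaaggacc

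The distal window held 0 NFAT cores and the internal window held 3, at -227 to -223, -193 to -189 and -163 to -159 from the start. Of 32851 promoter windows of the same length, 55.6% held at least 1 NFAT core and 6.39% held at least 3. The internal window also held the AP-1 motif TGACTCA at -110 to -104, which 4.46% of windows held on either strand. It held the cyclic AMP response element TGACGTCA at -175 to -168, which 1.55% of windows held. The last motifs were chosen after the sequence was seen, none of these matches overlap, and a match is only a match of letters. Both windows belong to the same gene, and its single value per library does not say which start was used.

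Rcan1 (ENSMUSG00000022951, chromosome 16, 92391953 to 92470867, GRCm38) had 76.4 and 125 TPM with UVB, against 0 and 0.118 TPM without. Both UVB libraries were high and both non-UVB libraries were at or near 0, so the groups did not overlap. The libraries also differed by group in how many genes they detected, with 10317 and 10229 genes at 1 TPM or more with UVB against 7826 and 8033 without, and the part of this in the result was not tested. On the log2(TPM + 1) scale, which understates the change of low genes, the difference was 6.55 ± 1.09 (SE, n = 2 per group). It was the 6th highest of the differences of the 10286 genes that reached 1 TPM in 2 or more libraries. Taken within replicate 1 the difference was 6.27 and within replicate 2 it was 6.82. It lay between 6.19 and 6.90 when any 1 of the 4 libraries was left out.

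**Figure D1:**
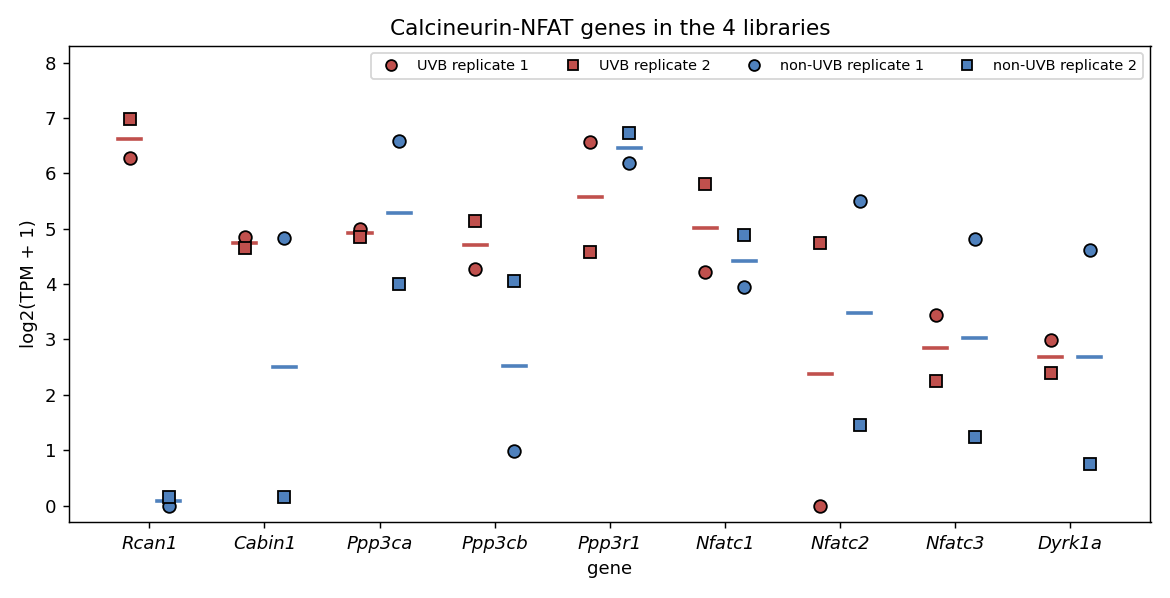
Levels of the 9 genes as log2(TPM + 1), with UVB libraries in red and non-UVB libraries in blue; circles are replicate 1, squares replicate 2 and bars group means. Rcan1 stands at 76.4 and 125 TPM with UVB against 0 and 0.118 TPM without, while for 7 of the other 8 genes the groups overlap.

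The reads behind Rcan1 were many in the UVB libraries. Deposited coverage times the exon length of the gene (3085 bases in GENCODE M21) gave the equivalent of 1272 and 1083 reads of 100 bases with UVB, against 0 and 1.27 without. As a share of each library this was 30.3 and 45.5 read bases per megabase sequenced with UVB, against 0 and 0.0516 without. Reads of a low-input library can be copies of few molecules, and without molecular identifiers these numbers do not count molecules.

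The tables hold 1 value per gene, so they do not say directly which Rcan1 transcript was made. GENCODE M21 lists 7 Rcan1 transcripts, 5 of them coding transcripts with 4 exons and lengths of 1506 to 2324 bases, and a pair of short ones of 440 bases (nonsense-mediated decay) and 387 bases (processed transcript). The ratio of deposited coverage to FPKM, with the exon length and the depth of the library, gives a mean transcript length. This mean weights each transcript by its estimated abundance and not by its reads, so it does not give the share of reads on short transcripts. For Rcan1 the mean was 614 and 530 bases with UVB and 631 bases in non-UVB replicate 2, where about 1 read was behind it. A mean below 1506 bases needs weight on the short models, so the TPM of Rcan1 was divided by a length far under that of its coding transcripts. Per read base, without that division, the difference was 5.22 on the log2(read bases per megabase + 1) scale. Direction and separation of the groups did not hang on this length.

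**Figure D2:**
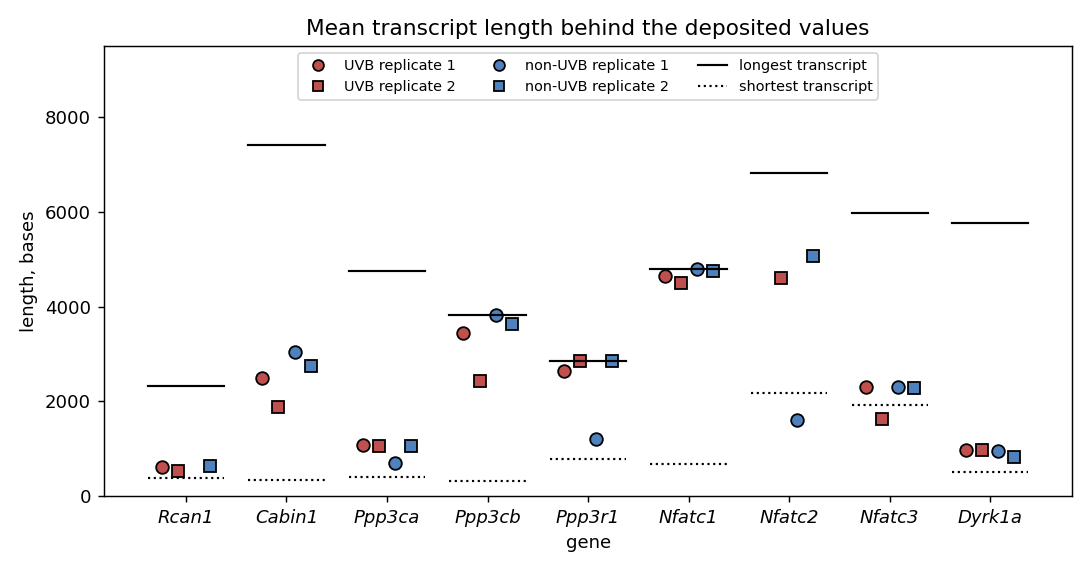
Mean transcript length in bases behind the deposited values of each gene, with UVB libraries in red and non-UVB libraries in blue, circles for replicate 1 and squares for replicate 2; solid and dotted lines are the longest and shortest transcript in GENCODE M21. Rcan1 sits at 530 to 631 bases, below its coding transcripts of 1506 bases or more, whereas Nfatc1 sits at 4505 to 4792 bases, close to its longest transcript of 4797 bases.

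The coding genes beside Rcan1 on chromosome 16 differed in level. The coding neighbours Fam243, Kcne1 and Clic6 were at 0 in all 4 libraries, as was Gm46555, which overlaps Rcan1 on the opposite strand. Smim11 had 185 and 156 TPM with UVB against 119 and 66.4 TPM without. Runx1, a transcription factor of T cells, had 38.8 and 3.57 TPM against 48.8 and 5.25 TPM and followed the library number.

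The 5 named genes nearest to Rcan1 in their profile over the 4 libraries were Anxa4, Polr1c, Cd244a, Srrd and Zfp672. Nearness was the Euclidean distance of log2(TPM + 1) values, and it was 0.29 for Anxa4 and 0.54 for Zfp672. Anxa4 had 63.9 and 132 TPM with UVB against 0 and 0.216 TPM without, and Cd244a had 65.8 and 100 TPM against 0.0658 and 0.0896 TPM. A distance under 1 was found for 26 of 10285 other genes, so the profile of Rcan1 was shared by other genes of these libraries.

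Cabin1 (ENSMUSG00000020196, chromosome 10, 75646112 to 75764341), the other calcineurin inhibitor, had 27.9 and 24.1 TPM with UVB against 27.6 and 0.11 TPM without. It was alike in 3 libraries and near 0 in non-UVB replicate 2, so the groups overlapped. The difference of 2.26 ± 1.97 log2 (SE, n = 2 per group) therefore rested on that library, and without it the difference was -0.09. Within replicate 1 the difference of Cabin1 was 0.01, beside 6.27 for Rcan1, and within replicate 2 it was 4.50, beside 6.82 for Rcan1.

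Ppp3ca (ENSMUSG00000028161, chromosome 3, 136670124 to 136937727) encodes the alpha form of the catalytic subunit. It had 30.7 and 27.8 TPM with UVB against 94.8 and 15.0 TPM without, with group means of 29.2 ± 2.07 and 54.9 ± 56.4 TPM (SD, n = 2 each). The UVB libraries lay between the non-UVB libraries, and the difference was -0.37 ± 1.16 log2. Leaving out non-UVB replicate 1 gave 0.92, and leaving out non-UVB replicate 2 gave -1.67. In non-UVB replicate 1, where Ppp3ca was highest, its mean transcript length was 705 bases, against 1061 to 1071 bases in the other 3 libraries.

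Ppp3cb (ENSMUSG00000021816, chromosome 14, 20499364 to 20546573) encodes the beta form. It had 18.3 and 34.3 TPM with UVB against 0.986 and 15.7 TPM without, and the groups did not overlap. The difference of 2.18 ± 1.54 log2 was 0.65 without non-UVB replicate 1 and 3.72 without non-UVB replicate 2. After quantile normalization the difference was 1.25, after median scaling it was 1.60, and under both scalings the groups overlapped.

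Ppp3cc, the gamma form, is not among the 9 genes but completes the trio. It had 26.6 and 24.3 TPM with UVB against 78.3 and 107 TPM without, and it stood lower in both UVB libraries. The difference was -1.81 ± 0.63 log2 (limma adjusted p = 0.427, by Benjamini-Hochberg over all genes tested). Across the alternatives it ranged from -2.44 with median scaling to -1.59 without non-UVB replicate 2. Because the groups did not overlap, leaving out a library could not change its sign.

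Summed over the 3 catalytic genes, the level was 75.6 and 86.4 TPM with UVB against 174 and 137 TPM without. This sum was chosen after the values were seen. Ppp3cb made up 24.3% and 39.8% of it with UVB against 0.566% and 11.4% without. Ppp3cc made up 35.1% and 28.1% with UVB against 45.0% and 77.7% without. Ppp3ca made up 40.6% and 32.1% against 54.5% and 10.9%, with the UVB libraries between the non-UVB ones. By TPM the non-UVB libraries differed from each other in which form was most abundant, Ppp3ca in replicate 1 and Ppp3cc in replicate 2. In non-UVB replicate 1 the sum and the share of Ppp3ca rest on its mean transcript length of 705 bases, against 1061 to 1071 bases elsewhere. In read bases per megabase Ppp3cc was above Ppp3ca in both non-UVB libraries, at 86.9 and 124 against 44.3 and 11.1.

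**Figure D3:**
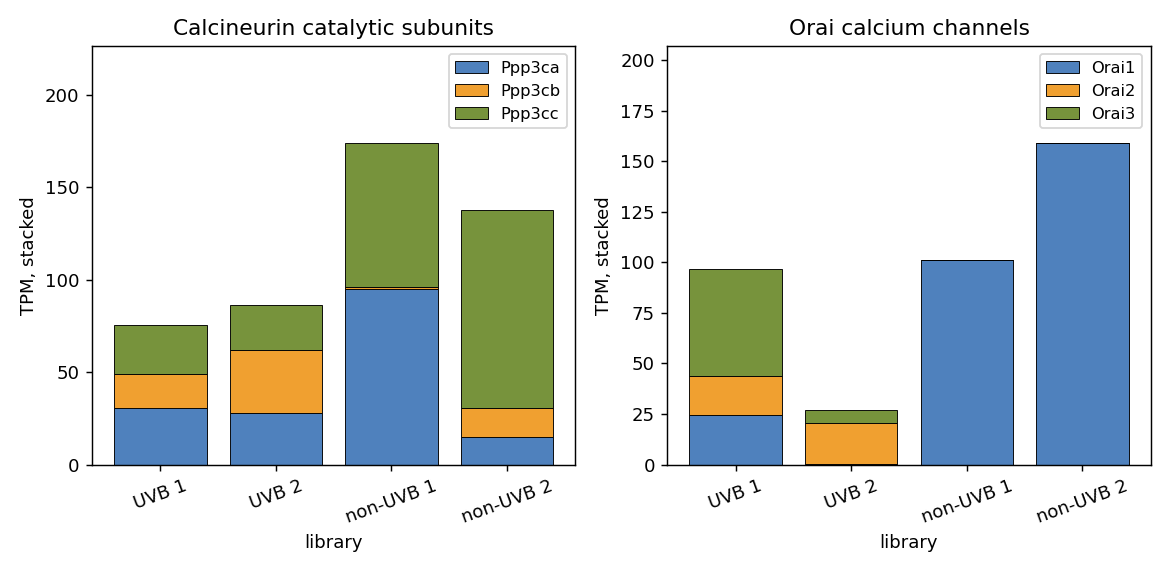
Stacked TPM of the calcineurin catalytic genes (left) and of the Orai calcium channel genes (right) in each library, UVB libraries first. The catalytic sum is 75.6 and 86.4 TPM with UVB against 174 and 137 TPM without, and Orai1 makes up nearly all of the Orai sum without UVB. The Ppp3ca part of non-UVB replicate 1 rests on a mean transcript length of 705 bases.

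Ppp3r1 (ENSMUSG00000033953, chromosome 11, 17159263 to 17200375), which encodes the B subunit, had 93.9 and 22.8 TPM with UVB against 72.0 and 105 TPM without. The groups overlapped, with UVB replicate 2 the lowest library, and the difference was -0.88 ± 0.92 log2. Leaving out UVB replicate 2 gave 0.11, and leaving out UVB replicate 1 gave -1.88. Wdr92 overlaps Ppp3r1 on the same strand and had 13.3 and 44.4 TPM against 19.5 and 0.204 TPM, opposite in order to Ppp3r1, and reads in the overlap cannot be told apart. The mean transcript length was 1202 bases in non-UVB replicate 1 and 2639 to 2851 bases in the other 3 libraries, between the 791 and 2859 bases of its 2 transcripts. Read bases per megabase were 160 and 44.5 with UVB against 57.4 and 207 without. The short transcript thus carried more weight in non-UVB replicate 1 than elsewhere.

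Nfatc1 (ENSMUSG00000033016, chromosome 18, 80606205 to 80713071) encodes an NFAT protein that is itself induced by calcineurin signalling in lymphocytes. It had 17.6 and 55.0 TPM with UVB against 14.5 and 28.6 TPM without. Both libraries numbered 2 were above both libraries numbered 1, and the UVB and non-UVB groups overlapped. The difference was 0.59 ± 1.02 log2, which was -0.03 after median scaling and -0.20 without UVB replicate 2. Gm50211 overlaps Nfatc1 on the opposite strand and was at 0 and 12.7 TPM against 0 and 23.3 TPM, so it too was seen in the libraries numbered 2. The sources used here do not state strandedness, so reads of this pair cannot be told apart where they overlap.

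Nfatc2 (ENSMUSG00000027544, chromosome 2, 168476410 to 168601657), the NFAT form first described in resting T cells, was at 0 and 25.8 TPM with UVB against 44.4 and 1.73 TPM without. It was high in 1 library and low in the other of each group, and the differences within the numbers had opposite signs, -5.50 in number 1 and 3.30 in number 2. Nfatc3 (ENSMUSG00000031902, chromosome 8, 106058840 to 106130537), which is also expressed in T cells, had 9.83 and 3.75 TPM against 27.0 and 1.37 TPM. Its highest and lowest libraries were both non-UVB ones, and the difference was -0.18 ± 1.71 log2. Leaving out non-UVB replicate 1 gave 1.60, leaving out non-UVB replicate 2 gave -1.96, and leaving out UVB replicate 2 gave 0.41.

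The 3 NFAT genes summed to 27.4 and 84.5 TPM with UVB against 85.8 and 31.7 TPM without, a sum chosen after the values were seen. Nfatc1 was the most abundant of them in 3 libraries, at 64.1% and 65.0% of the sum with UVB and 90.2% in non-UVB replicate 2. In non-UVB replicate 1 it made up 16.9%, and Nfatc2 was the most abundant at 51.7%. That share rests on a mean transcript length of 1612 bases for Nfatc2, below its shortest annotated transcript of 2174 bases. In read bases per megabase the 3 genes were close in that library, at 46.0, 47.5 and 41.3 for Nfatc1, Nfatc2 and Nfatc3.

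Dyrk1a (ENSMUSG00000022897, chromosome 16, 94570010 to 94695517), the kinase that primes NFAT for export, had 6.93 and 4.24 TPM with UVB against 23.4 and 0.686 TPM without. The UVB libraries again lay between the non-UVB libraries, and the difference was 0.01 ± 1.72 log2. With non-UVB replicate 1 left out it was 1.94 and with non-UVB replicate 2 left out -1.92, while leaving out a UVB library gave -0.29 or 0.31. It had the fewest reads of the 9 genes over the 4 libraries, the equivalent of 184 and 67.3 reads with UVB against 509 and 9.79 without.

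**Figure D4:**
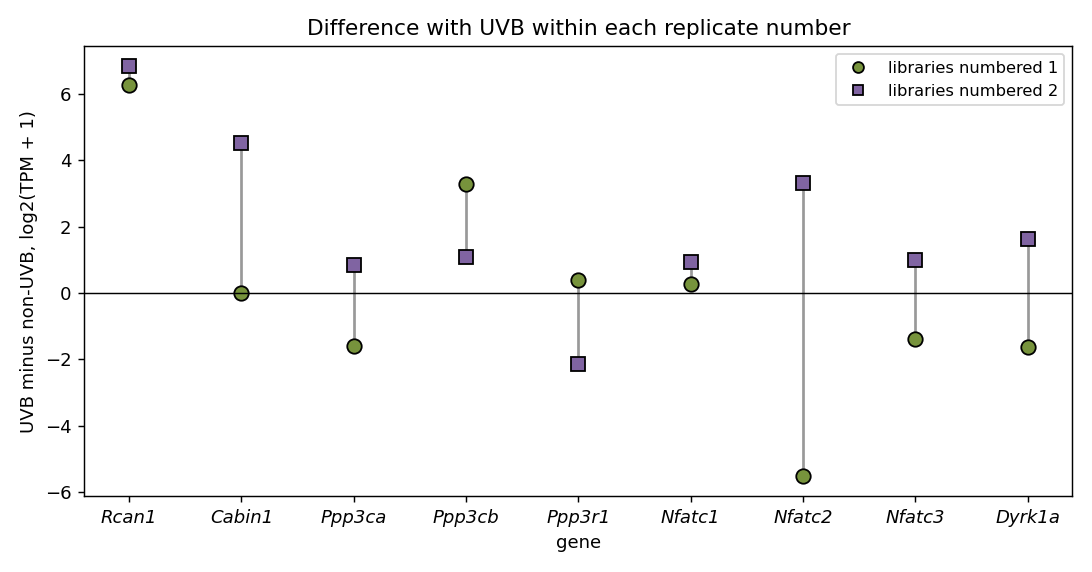
UVB minus non-UVB difference of log2(TPM + 1) for each gene, taken between the libraries numbered 1 (circles) and between those numbered 2 (squares). Only Rcan1, Ppp3cb, Nfatc1 and Cabin1 have no negative value, with Cabin1 at 0.01 in number 1, and Nfatc2 spans -5.50 to 3.30.

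For 2 of the 9 genes the groups did not overlap, Rcan1 and Ppp3cb, both higher with UVB and both at least 1 log2 apart. Of all 10286 genes 18.1% were separated in that way and higher, 6.47% lower and 24.5% in either direction, and 32.9% did not overlap by any margin. The count is not read against these shares, because the 9 genes were chosen with results of this contrast known, and Rcan1 for its values in it. The balance of separated genes was not stable, since 73.7% of them were higher as deposited, 52.1% after median scaling and 45.0% after quantile normalization. With limma 0 of 10286 genes passed an adjusted p of 0.05 (0%), while the unadjusted p was under 0.05 for 1167 (11.3%). The median difference of the 9 genes was 0.01 log2, and that of all genes tested was 0.26.

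Wide swings between libraries were common among genes of like level. Of the 9 genes 5 had a library under 1 TPM, which are Rcan1, Nfatc2, Ppp3cb, Dyrk1a and Cabin1. Of 5310 genes with a mean TPM in the same range, 8.83 to 73.3, the share with such a library was 60.6%. The median span from the lowest to the highest library was 3.86 log2 for the 9 genes and 4.96 log2 for those 5310. Of 39 proteasome subunit genes, 2 and 3 were under 1 TPM with UVB and 3 and 3 without, and 1 or 2 in each library were at 0. This set was taken by name and includes forms that not every cell uses, so its zeros do not measure missed transcripts. Because of the wide swings, a gene listed at 0 is described only as such.

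By mean TPM over the 4 libraries the order was Ppp3r1 (73.3), Rcan1 (50.4), Ppp3ca (42.1), Nfatc1 (28.9), Cabin1 (19.9), Nfatc2 (18.0), Ppp3cb (17.3), Nfatc3 (10.5) and Dyrk1a (8.83). The ranges of all neighbours in this order overlapped over the 4 libraries. Rcan1 was the highest of the 9 genes in UVB replicate 2 and second to Ppp3r1 in UVB replicate 1, a place that rests on the short lengths of 614 and 530 bases by which its reads were divided.

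The rest of the pathway was described through 5 lists with 84 genes, of which 63 were tested. None of the 63 had a limma adjusted p under 0.05, 7 were higher and 2 lower at an unadjusted p under 0.05, and the background for these was 9.97% and 1.37% of all genes. The groups did not overlap and were at least 1 log2 apart for 16 of the 63 (25.4%), close to the 24.5% of all genes. After quantile normalization 17 and after median scaling 21 were so separated. The counts of such genes among all genes tested moved as well. They were 1859 higher and 665 lower as deposited, 1459 and 1783 after quantile normalization, and 1464 and 1344 after median scaling. The 17 and 21 are therefore not read against the 24.5%, which holds for the values as deposited.

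**Figure D5:**
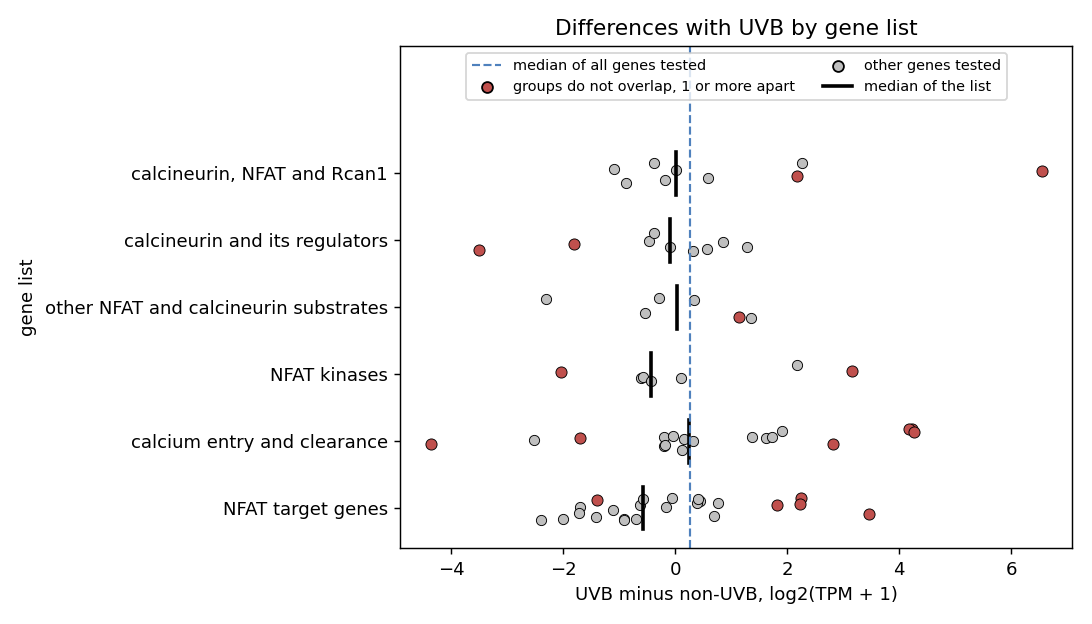
UVB minus non-UVB difference of log2(TPM + 1) for each tested gene of the 9 described and of 5 pathway lists; red points mark genes whose groups do not overlap and differ by 1 or more, black bars list medians and the dashed line the median of all genes tested. List medians lie between -0.57 and 0.24, and Rcan1 at 6.55 is the point furthest to the right.

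Among calcium entry genes, the Orai channels of the plasma membrane differed in opposite ways. Orai1, the main pore of store-operated calcium entry in T cells, had 24.6 and 0.506 TPM with UVB against 101 and 159 TPM without. Orai2 had 19.0 and 20.3 TPM against 0.0105 and 0.197 TPM, and Orai3 had 53.2 and 6.39 TPM against 0.0365 and 0.178 TPM. For each of the 3 channels the groups did not overlap. The differences were -4.36 ± 1.66, 4.23 ± 0.88 and 4.18 ± 1.35 log2 for Orai1, Orai2 and Orai3, and their limma adjusted p values were 0.495, 0.223 and 0.371. Orai2 and Orai3 entered the test through the UVB libraries alone, so their p-values are a description. The difference of Orai1 ranged from -6.41 without UVB replicate 1 to -2.32 without UVB replicate 2. Each of the 3 kept its sign under each alternative. For groups that do not overlap, leaving out a library or adding the replicate block cannot change the sign, so this adds no support. Orai1 made up 25.4% and 1.86% of the Orai sum, chosen after the values were seen, with UVB against 99.95% and 99.8% without, and the sum itself was 96.8 and 27.2 TPM against 101 and 159 TPM.

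In the same list of 21 genes 18 were tested, 11 with a higher and 7 with a lower mean, and the median was 0.24 log2. The share with a higher mean was 61.1%, beside 61.0% of all genes tested. Atp2a2, the calcium pump that refills the endoplasmic reticulum, had 28.7 and 15.9 TPM with UVB against 0.0171 and 0.34 TPM without (limma adjusted p = 0.223). Plcg2, a phospholipase of B and myeloid cells outside the naming rule and picked for its values, had 12.1 and 2.77 TPM against 0 in both non-UVB libraries (limma adjusted p = 0.321), beside the higher sum of macrophage and dendritic cell markers given above, whose part in it was not tested. Stim1, the calcium sensor that opens Orai1, had 11.3 and 0.492 TPM against 12.6 and 13.1 TPM, so its lower mean rested on UVB replicate 2, and its difference was -0.18 without that library. Saraf, an inhibitor of store-operated entry and the most abundant gene of the list, had 436 and 233 TPM against 283 and 377 TPM, with overlapping groups.

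Of 15 further regulators of calcineurin 9 were tested, 4 with a higher and 5 with a lower mean (median -0.09 log2). Ppia and Fkbp1a encode the proteins through which cyclosporin and tacrolimus block calcineurin. Ppia, the most abundant gene of the list, had 2563 and 3787 TPM with UVB against 2049 and 1433 TPM without. Its difference of 0.86 log2 was 0.22 after median scaling. In read bases per megabase Ppia had 2252 and 2084 with UVB against 1593 and 2168 without, so the groups overlapped. Its mean transcript length was 803 bases in UVB replicate 2 and 2175 bases in non-UVB replicate 2. Homer3, a scaffold protein known to compete with calcineurin for NFAT, had 9.65 and 0 TPM against 36.4 and 35.5 TPM (limma adjusted p = 0.648). Ppp3r2, Rcan2, Homer2 and Lrrk2 were at 0 in all 4 libraries. The 3 calmodulin genes, likewise summed after their values were seen, had 3095 and 1617 TPM with UVB against 2373 and 2385 TPM without.

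Of 8 other NFAT kinases 7 were tested, with a median of -0.44 log2. Dyrk2, a relative of Dyrk1a, had 5.17 and 12.7 TPM with UVB against 0 and 0.0516 TPM without (limma adjusted p = 0.223). Gsk3b, which phosphorylates NFAT after priming, had 0.773 and 21.3 TPM against 21.9 and 27.8 TPM, and its difference of -2.03 was -0.20 without UVB replicate 1. Csnk1a1, the most abundant of them, had 199 and 124 TPM against 137 and 156 TPM and overlapped.

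Of 9 other NFAT genes and calcineurin substrates 6 were tested (median 0.03 log2). Nfat5, which responds to osmotic stress rather than to calcineurin, had 10.2 and 3.64 TPM with UVB against 1.5 and 3.32 TPM without, and its difference of 1.14 log2 was -0.56 after quantile normalization. Crtc2, a coactivator of CREB, ranged from 1.85 to 108 TPM within the UVB group and had 16.3 and 36.3 TPM without UVB.

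Of 31 genes described as NFAT targets 23 were tested, 9 with a higher (39.1%, against 61.0% of all genes tested) and 14 with a lower mean, and the median was -0.57 log2 against 0.26 for all genes. Within the replicates the median of the targets was 0 and 0.18 log2, so it did not keep its sign. Nr4a1, an orphan receptor induced by the antigen receptor, had 370 and 249 TPM with UVB against 857 and 747 TPM without (limma adjusted p = 0.276). Ccl4, a chemokine also outside that rule, had 1780 and 1219 TPM against 417 and 415 TPM (limma adjusted p = 0.223). Il5 had 27.3 and 3.59 TPM against 0 and 0.0785 TPM (limma adjusted p = 0.397). Egr2 had 16.6 and 1.18 TPM against 0.442 and 0.178 TPM (limma adjusted p = 0.764), and its difference of 2.25 was 0.75 without UVB replicate 1. Dgkz, a kinase that removes diacylglycerol, had 33.3 and 38.8 TPM against 33.2 and 0.804 TPM, and its difference was 0.11 without non-UVB replicate 2. Il2, the classical NFAT target and likewise outside that rule, had 12.0 and 5.31 TPM against 8.02 and 20.9 TPM, with overlapping groups. Tnfrsf9, the most abundant of the list, had 1001 and 790 TPM against 647 and 1543 TPM.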

How the data were processed

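Each library has a gene table in which, per the file headers, the authors deposited coverage (mean read depth per base, an unscaled signal), FPKM and TPM. The submitters' processing notes name HISAT2, StringTie and DESeq2 with GRCm38 (mm10), without roles or versions. The sources used here do not state the annotation version. The 4 tables were joined by gene ID, with repeated IDs added up, giving 55487 genes.

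The 10286 genes that reached 1 TPM in 2 or more libraries were compared as log2(TPM + 1). Genes under 1 TPM in both non-UVB libraries entered only through the UVB group in which they were high. Among the named genes these include Rcan1, Orai2, Orai3, Atp2a2, Plcg2, Dyrk2, Il5 and Egr2. Any p-values of theirs are a description. The fit used limma 3.58.1 (R 4.3.3), no covariate beside group, and a trend of the spread with intensity. It was checked on simulated data, where no planted change passed the adjusted threshold either, so an absence of calls does not show that genes were alike. Adjustment was by Benjamini-Hochberg with a threshold of 0.05. The files hold no whole counts, so no count test was run.

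The highest ratio of coverage to FPKM gives the gigabases behind a library. Coverage times exon length in GENCODE M21, the same build, gives read bases. Mean transcript length, computed from both, lay within the annotated range for 95.9% to 96.3% of genes with at least 50 reads. It lay below that range for Nfatc2 and Nfatc3 in a library each, so the annotations differ in places.

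The 9 genes and all lists were chosen with earlier results of these data known. Named list genes were the most abundant and up to 3 per direction whose groups did not overlap and differed by at least 1 log2. Those nearest to Rcan1 left out predicted and Rik genes. Of 154 listed genes 2 were not found.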

Additional observations from a re-analysis of the deposited data

How the results depend on the processing

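Limma called 0 genes at an adjusted p under 0.05 in each alternative run, and the number at an unadjusted p under 0.05 was 1167 as reported and between 930 and 1344 across them. The difference of Rcan1, 6.55, was 9.37 with a pseudocount of 0.1, 4.35 with 5, 5.99 on FPKM and 5.22 on read bases per megabase sequenced, an alternative chosen after seeing the data. It was 6.19 to 6.90 with 1 library left out, which takes the spread of a lone library from the other group. The shifts with the pseudocount follow from the log scale, since Rcan1 is near 0 without UVB. FPKM differs from TPM by a factor per library, and read bases leave out the division by transcript length. The part of each in the other shifts of Rcan1 was not tested. The median of all genes moved from 0.26 to -0.19 with quantile normalization and to -0.27 with median scaling, and was 0.19 to 0.43 with 1 library left out. With median scaling, the medians of calcineurin regulators, NFAT kinases and calcium entry genes were -0.48, -0.86 and -0.27. With 1 library left out these 3 medians were -0.75 to -0.01, -1.44 to 0.28 and -0.32 to 0.95, those of NFAT targets -0.50 to -0.11 and of other substrates -0.67 to 1.21, and that of the 9 genes -0.62 to 1.27. The cause of these shifts was not tested. With the replicate number as a block, 1110 genes had an unadjusted p under 0.05, 0 an adjusted one, and Rcan1 stayed at 6.55. The difference between replicates 1 and 2 in the UVB group correlated with that in the non-UVB group over 10286 genes (r = 0.165), but with 2 pairs and no label on their origin the numbers were not taken as pairs, although libraries of the same number were alike in their sums of gamma-delta and keratinocyte markers. Depth is lowest for Dyrk1a, and 2 libraries per group limit each comparison.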
